A study of Mus musculus with 36 samples.

Results

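Sendai virus (SeV) and 3',3'-cGAMP were added together to mouse bone marrow-derived dendritic cells that also received either PAM or depleted zymosan, and the change in chromatin accessibility was compared between the 2 backgrounds. PScG was compared with P, and ZScG with Z, in 8 of the 36 libraries of the series. The letters are P for PAM, Z for depleted zymosan, S for SeV and cG for 3',3'-cGAMP, and each of the 4 groups had 2 libraries. The cells came from bone marrow of female C57BL/6 mice aged 6 to 8 weeks and were grown with GM-CSF, which the cells of every group received. All were stimulated for 6 h, so P and Z are separate libraries and not an earlier time point. Below, before and after the addition mean the groups without and with SeV and cGAMP. Unstimulated cells (Ctrl) and cells given SeV and cGAMP alone (ScG), with 2 libraries each, are given beside them. The assay was ATAC-seq: a transposase inserts sequencing adapters where chromatin is open, so that more reads mark more accessible DNA. The labels do not say whether the libraries of a group came from separate mice or cultures, so p-values measure the spread between these libraries, which may be technical.

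As background, PAM is a common short name of lipopeptides sensed by the cell-surface receptor TLR2, though the labels give only the short name. Zymosan is a yeast cell wall preparation sensed by Dectin-1, the product of Clec7a. SeV is an RNA virus sensed in the cytosol by RIG-I, the product of Ddx58, and cyclic dinucleotides such as cGAMP bind STING (Tmem173). Both cytosolic routes act through the kinase TBK1 and the factor IRF3 to switch on Ifnb1, and the secreted interferon acts on its receptor to switch on antiviral genes. Many of their promoters hold an interferon-stimulated response element (ISRE), bound by IRF and STAT factors.

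The 8 libraries held 8181254 to 12966927 counts outside the mitochondrial genome. The mitochondrial share of counts was 49.5% ± 1.44 in P and 45.1% ± 0.954 in PScG, against 61.7% ± 1.06 in Z and 58.3% ± 0.556 in ZScG (SD, n = 2 each). Each change was thus taken between groups of similar share, whereas a level in P set beside a level in Z compares groups of unlike share. The test of the difference, given below, likewise sets a change in libraries of lower share against a change in libraries of higher share. In such comparisons of levels, and in that difference of changes, the ligand and whatever goes with that share cannot be told apart. Start peaks were found for 7 of 7 dendritic cell markers, 5 of 5 macrophage markers and 2 of 4 erythroid markers, but for 0 of 4 T cell markers. Summed levels over the 8 libraries were 67.3 to 92.1 CPM (counts scaled to the library size) for the dendritic markers. They were 72.2 to 116 CPM for the macrophage and 14.1 to 18.9 CPM for the erythroid markers. The only dendritic marker called was Itgax, which fell by 0.57 on PAM and 0.86 on zymosan. The only macrophage marker called was Cd68, which rose by 0.64 and 0.46. Of 4 B cell markers only Ms4a1 (the gene of CD20) had a start peak, at 1.26 CPM in P, 7.90 in PScG, 3.02 in Z and 4.48 in ZScG (means of 2). It rose on PAM, with a called difference. Of the neutrophil markers 1 of 5, S100a8, had a start peak, at 18.5, 12.4, 18.9 and 7.25 CPM in the same order; it fell on both backgrounds. The part of other cells in the results below was not tested. In bulk cells, a change in the mix of cells and a change within cells cannot be told apart.

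The promoters of 4 interferon-induced genes with a called difference, and of 1 without, are shown first. Irgm1 and Cmpk2 are in the antiviral gene list, which held called differences at its starts, and Ifi206 and Ifi213 are not. Of the list's genes with a called difference, only Irgm1 is among the start peaks with an ISRE match counted below. The promoters of Cmpk2 and Oasl1 had none, so the promoters shown do not stand for the list. Each runs from 250 bases before to 50 after the start, from RefSeq on GRCm38.p6, and capitals mark matches to the ISRE letters (GAAA, then NN, then GAAA) or the kappa B letters (GGGA, then NN, then TTCC) on either strand, where N is any base. Ifi206 (chr1:173491269-173491568, minus strand), Ifi213 (chr1:173599223-173599522, minus strand) and Irgm1 (chr11:48871371-48871670, minus strand) had a larger change on P at the start, with an ISRE match. Cmpk2 (chr12:26468965-26469264, plus strand) had a larger change on P and no match to either motif. Cxcl10 (chr5:92348840-92349139, minus strand) rose on both backgrounds with no called difference and holds both motifs.
Ifi206: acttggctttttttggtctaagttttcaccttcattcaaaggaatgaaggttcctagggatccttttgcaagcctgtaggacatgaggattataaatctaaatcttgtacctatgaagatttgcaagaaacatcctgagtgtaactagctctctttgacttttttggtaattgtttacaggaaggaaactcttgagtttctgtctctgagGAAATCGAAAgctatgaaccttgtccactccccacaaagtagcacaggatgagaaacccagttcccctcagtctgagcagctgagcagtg
Ifi213: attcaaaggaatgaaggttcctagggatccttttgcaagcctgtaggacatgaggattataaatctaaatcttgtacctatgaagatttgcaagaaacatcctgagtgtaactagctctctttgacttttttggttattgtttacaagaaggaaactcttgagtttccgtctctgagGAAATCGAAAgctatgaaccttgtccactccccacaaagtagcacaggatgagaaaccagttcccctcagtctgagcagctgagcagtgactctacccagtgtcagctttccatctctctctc
Irgm1: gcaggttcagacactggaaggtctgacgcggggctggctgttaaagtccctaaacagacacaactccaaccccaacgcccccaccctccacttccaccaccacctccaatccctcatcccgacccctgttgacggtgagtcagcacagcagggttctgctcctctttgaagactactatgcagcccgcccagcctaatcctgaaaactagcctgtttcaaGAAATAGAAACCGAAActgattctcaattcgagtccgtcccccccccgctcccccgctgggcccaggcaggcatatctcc
Cmpk2: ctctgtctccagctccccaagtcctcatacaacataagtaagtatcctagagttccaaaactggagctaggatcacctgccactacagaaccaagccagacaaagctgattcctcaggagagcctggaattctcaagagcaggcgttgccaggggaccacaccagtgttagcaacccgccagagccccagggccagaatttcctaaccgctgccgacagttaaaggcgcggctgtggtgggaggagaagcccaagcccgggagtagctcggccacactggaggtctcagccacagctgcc
Cxcl10: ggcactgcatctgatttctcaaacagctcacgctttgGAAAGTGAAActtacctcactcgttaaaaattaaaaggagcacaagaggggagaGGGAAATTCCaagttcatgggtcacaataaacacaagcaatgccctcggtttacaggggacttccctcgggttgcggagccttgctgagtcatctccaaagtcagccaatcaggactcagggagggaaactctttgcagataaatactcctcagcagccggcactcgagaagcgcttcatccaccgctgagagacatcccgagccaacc

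The single ISRE match begins 40 bases before the start in Ifi206 and 73 before it in Ifi213, and Irgm1 has overlapping matches that begin 30 and 24 bases before its start. In Cxcl10 the ISRE match begins 213 bases before the start and the kappa B match 159 before it. Ifi206 and Ifi213 are members of the Ifi200 family of interferon-induced genes. The Ifi200, Ifit and Trim12 genes lie in clusters of related copies, and reads of near-identical copies can be assigned to the wrong one, so values there are uncertain to that extent.

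Adding SeV and cGAMP changed accessibility at a large part of all peaks on either background. On PAM, 28811 of 119464 tested peaks changed (24.1%), 14580 higher (12.2%) and 14231 lower (11.9%). On zymosan, 24545 changed (20.5%), 10855 higher (9.09%) and 13690 lower (11.5%). A peak is called changed at an adjusted p under 0.05 (edgeR quasi-likelihood test, Benjamini-Hochberg over all tested peaks), and changes are log2 differences of fitted levels. Scaling by total counts put 55.6% of the calls on zymosan above 0, against 44.2% here, and moved the median change of all peaks there from 0.02 to 0.12. Without PScG replicate 1 the count on PAM was 18970. On zymosan it was 15199 without Z replicate 2 and 15556 without ZScG replicate 1.

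The test of the difference, the change on PAM minus the change on zymosan, called 629 peaks (0.527%), of which 488 (0.408%) lay above 0 and 141 (0.118%) below. At an unadjusted p under 0.05 there were 12841. Scaling by total counts called 329, with 64.4% above 0, and offsets that depend on abundance called 447, with 60.9% above 0, against 77.6% here. The count was 321 without P replicate 1, 417 without PScG replicate 1, 255 without PScG replicate 2, 287 without Z replicate 1, 292 without Z replicate 2 and 277 without ZScG replicate 2. With only the 4 groups in the fit it was 196, and with all libraries thinned to the lowest depth 352.

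On both backgrounds, 13537 peaks (11.3%) changed in 1 direction with no called difference, 5996 higher and 7541 lower. Their median size of change was 1.15 on PAM and 1.25 on zymosan. At 5671 of them (41.9%) the 95% interval of the difference lay within 1 log2 unit of 0; at the rest these libraries do not show how alike the changes were. A further 79 peaks changed in 1 direction with a called difference, 41 of them larger on PAM and 38 larger on zymosan. At 72 peaks the calls went in opposite directions, 54 higher on PAM and lower on zymosan, 18 the reverse, and the difference was called at 70. The difference was also called at 271 of the 15123 peaks called on PAM alone and at 209 of the 10857 called on zymosan alone. The remaining 14852 and 10648 are undecided.

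Across all tested peaks the fitted changes on the 2 backgrounds had a Pearson r of 0.582, and 0.813 over the 17843 peaks with a mean of at least 10 CPM. The contrasts share no library, but peaks are not independent and every library shares the peak set. For scale, changes computed from single libraries had an r of 0.828 between the 2 replicates on PAM and 0.790 on zymosan in those deeper peaks, and 0.733 to 0.737 across backgrounds.

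**Figure D1:**
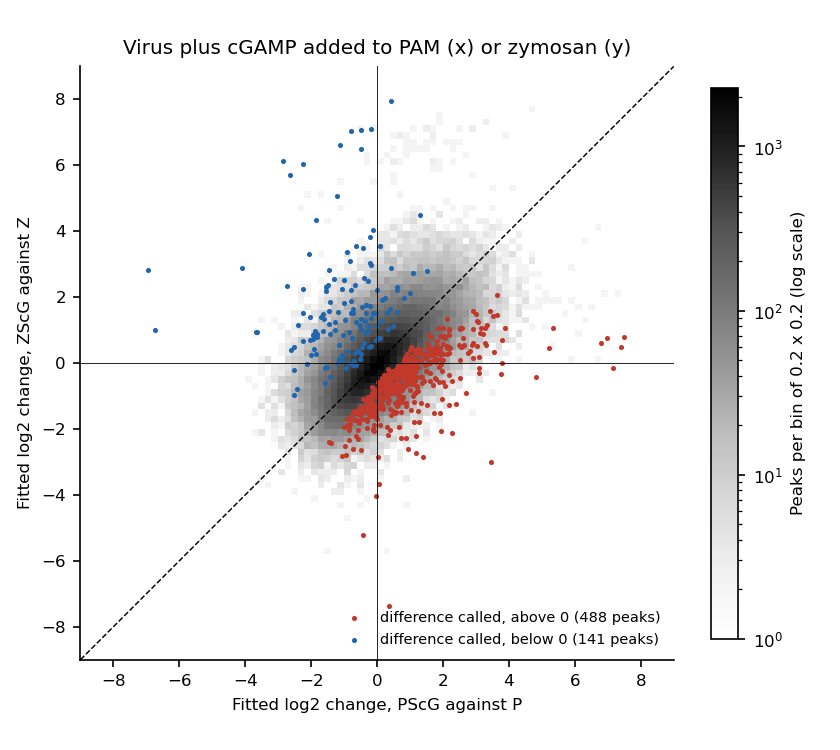
Fitted log2 change at 119464 peaks when SeV and cGAMP were added to PAM (x axis) or to zymosan (y axis); grey shows peaks per bin on a log scale, the dashed line equal change, and coloured points the 488 peaks with a called difference above 0 and the 141 below. Peaks form a broad cloud around 0 that leans along the dashed line (Pearson r 0.582), and the called peaks on the PAM side outnumber those on the other.

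The lowest p-values of the difference stood at peaks that overlap Ifit2, Mx1 and Ifit1, all with a larger gain on PAM. The Mx1 and Ifit1 peaks reach past an end of the gene span. None of these peaks is the start peak taken for its gene in the antiviral list below. The 12 peaks with the lowest values were chosen after their values were seen, and the difference was called at all 12 under each of 17 alternative settings. Peaks lie on mm10; the gene table used gives gene spans and not exons, so exon, intron and UTR are not stated.

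Ifit2, which encodes an RNA-binding antiviral protein, has a 6561 bp peak that overlaps the gene (chr19:34572687-34579247). It held 4.89 and 2.82 CPM in P and 37.6 and 40.5 in PScG, against 19.2 and 19.7 in Z and 41.9 and 44.4 in ZScG. Levels in PScG and ZScG were close together, while those in P and Z were far apart. The change was 3.35 ± 0.158 (SE) on PAM, a 10.2-fold rise, and 1.15 ± 0.135 on zymosan, a 2.21-fold rise. The difference was 2.201 (95% interval 1.78 to 2.62, adjusted p = 1.38e-14). Ctrl held 8.85 and 5.02 CPM and ScG 40.6 and 44.8, so SeV and cGAMP alone, with or without a background, reached a similar range.

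The peak that overlaps the end of Ifit1 (chr19:34649632-34654426), the gene of a protein that binds viral RNA caps, showed the same order. It held 3.59 and 4.04 CPM in P, 44.2 and 51.5 in PScG, 12.9 and 16.6 in Z, and 36.3 and 45.9 in ZScG. It rose 12.5-fold on PAM and 2.76-fold on zymosan, a difference of 2.18 on the log2 scale (adjusted p = 2.84e-09). PScG and ZScG overlapped; P and Z did not. A peak over Gm4951 on chromosome 18 rose from 1.99 and 1.08 CPM to 10.3 and 11.2 on PAM. On zymosan it went from 11.7 and 9.54 to 14.4 and 12.8 and was not called (adjusted p = 0.195).

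At the wide Mx1 peak and the Ifi206 start the rise on PAM had no called counterpart on zymosan, and at Mx2 there was a fall. Mx1 encodes an antiviral GTPase, and its 5269 bp peak (chr16:97443785-97449053) held 11.2 and 11.7 CPM in P and 35.2 and 33.0 in PScG, against 21.6 and 23.0 in Z and 24.3 and 20.8 in ZScG. It rose 2.97-fold on PAM; the change on zymosan was 0.02 (adjusted p = 0.938), and the difference 1.55 (adjusted p = 2.84e-09). PScG lay above every other of these 6 groups, and ScG alone held 22.0 and 21.2. The Mx2 start peak (chr16:97534460-97536647) rose by 0.66 on PAM and fell by 0.27 on zymosan, from 50.2 and 42.5 to 72.3 and 73.9 CPM and from 63.8 and 67.7 to 55.3 and 53.9. The difference there was 0.93 ± 0.139 (adjusted p = 3.12e-06).

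The Ifi206 start peak (chr1:173490394-173492529), which covers the promoter printed above, held 17.8 and 20.8 CPM in P and 40.4 and 44.3 in PScG. In Z it held 29.8 and 29.4, and in ZScG 31.3 and 25.6. It rose by 1.13 on PAM, and the change on zymosan was -0.05 (adjusted p = 0.836), a difference of 1.18 (adjusted p = 3.23e-06). Only PScG stood above 40 CPM among the 6 groups. The Ifi213 start peak rose by 2.12 on PAM, against 0.47 on zymosan.

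Sec22c, which encodes a protein of endoplasmic reticulum transport, was the exception in direction among the 12. Its peak (chr9:121701328-121702528) held 31.8 and 31.3 CPM in P and fell to 14.6 and 13.8 in PScG, and rose from 16.1 and 12.5 in Z to 22.1 and 19.7 in ZScG. The difference was -1.71 ± 0.23 (adjusted p = 7.31e-08). Ctrl held 2.84 and 2.12 CPM and ScG 18.2 and 19.1, so every one of these ligand groups lay above no ligand, and the levels after the addition were closer together than those before it.

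Some of the 12 peaks differed through a fall on zymosan. A peak 1.1 kb from Apobec1, an RNA-editing enzyme gene (chr6:122575623-122576687), went from 23.5 and 20.7 CPM in Z to 8.93 and 7.03 in ZScG. On PAM it went from 7.03 and 8.52 to 9.96 and 11.6, so P lay far below Ctrl, at 23.7 and 19.5. The Ston2 peak (chr12:91718879-91719623) fell by 1.48 on zymosan, and its change on PAM was -0.04 (adjusted p = 0.895). Peaks near Fkbp1a (1.60), Hmga2 (1.49) and Lsm14a (1.29) had called differences with a rise on PAM and no call on zymosan.

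**Figure D2:**
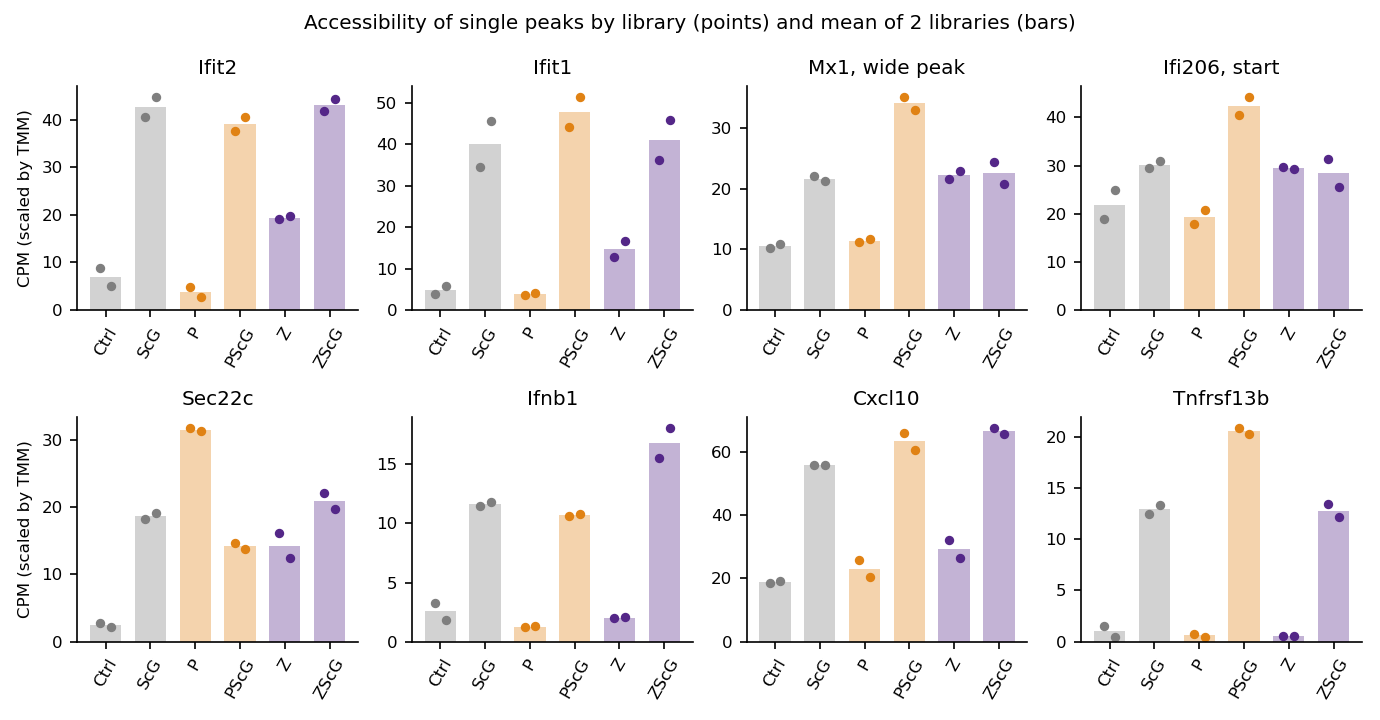
Accessibility in CPM of 8 single peaks by library (points) with the mean of 2 libraries (bars) in Ctrl, ScG, P, PScG, Z and ZScG. At Ifit2 and Ifit1 Z stood above P and the triplets held a similar level, and at Mx1 and Ifi206 PScG stood alone. Sec22c moved in opposite directions, and Ifnb1, Cxcl10 and Tnfrsf13b rose on both backgrounds.

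Among all 629 peaks with a called difference, P and Z were further apart than PScG and ZScG at most loci. At the 488 peaks above 0, the median log2 ratio of P over Z was -0.83, and that of PScG over ZScG was 0.39 (mean CPM plus 0.5). Z was above P before the addition at 474 of them, against 60610 of all 119464 tested peaks. The gap before was the larger at 355 (72.7%). At the 141 peaks below 0 the medians were 1.58 before and -0.21 after, and the gap before was the larger at 128 (90.8%). Over all tested peaks it was the larger at 54.4%. The difference in change is the ratio after minus the ratio before, so these peaks were chosen on both ratios and no test is given. These ratios compare levels of groups with unlike mitochondrial share, and its part was not tested.

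**Figure D3:**
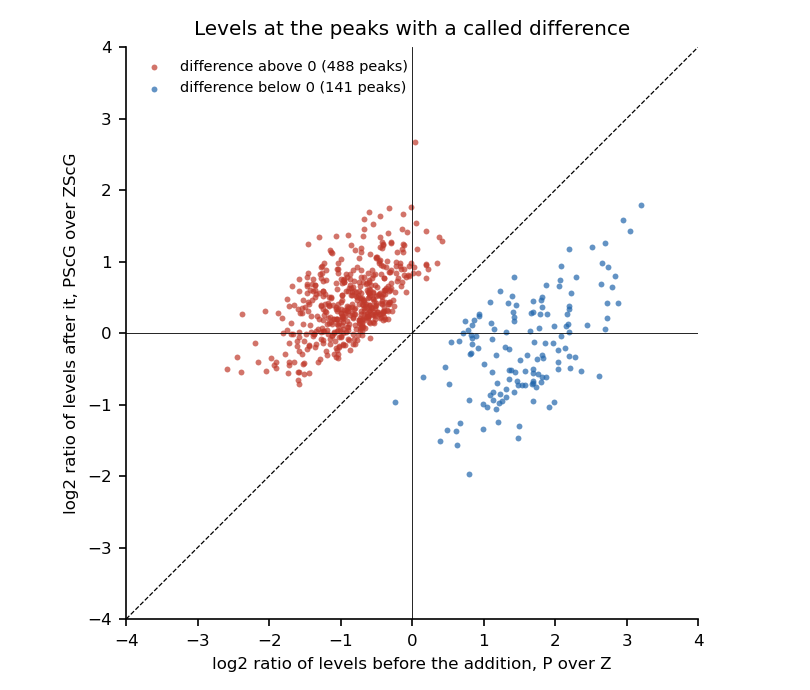
Log2 ratio of mean levels, P over Z (x axis) and PScG over ZScG (y axis), at the 629 peaks with a called difference. The dashed line marks equal ratios. Red points, where the change was larger on PAM, lie mostly left of 0 and blue points right of it, with medians nearer 0 on the y axis than on the x axis.

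The antiviral list was the list with called differences at gene starts. For each gene the tested peak within 1 kb of a start with the highest mean CPM was taken. This choice favours peaks with many counts, where a change is called more readily than over all tested peaks (median 2.17 CPM). The median standard error of a change was 0.42 on PAM and 0.48 on zymosan, so counts on the 2 backgrounds also differ in power. Both limits hold for the shares of every list below. Of 22 antiviral and interferon-induced genes, 15 rose on PAM and 0 fell, against 12.2% of all tested peaks higher there and 11.9% lower; the median change was 0.60, against 0.02 over all peaks. On zymosan 6 rose (9.09% of all peaks) and 3 fell (11.5%), with a median of 0.14. That split moved with the scaling: 9 rose and 1 fell there both with total counts (median 0.23) and with offsets that depend on abundance (median 0.27). The difference was called at 6 of 22, all above 0, against 0.408% of all tested peaks above 0.

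Those 6 genes, named here after their values were seen, were Mx2, Cmpk2, Oasl1, Ifi204, Mx1 and Irgm1. Oasl1, of the oligoadenylate synthetase-like family, rose on both backgrounds. Its start peak went from 12.3 and 14.7 CPM to 47.8 and 49.5 on PAM and from 17.7 and 21.5 to 42.6 and 39.8 on zymosan, changes of 1.85 and 1.06 (difference 0.78 ± 0.175, adjusted p = 0.0091). Cmpk2, a mitochondrial nucleotide kinase next to Rsad2, rose from 23.5 and 21.5 to 34.6 and 38.3 CPM on PAM. On zymosan Cmpk2 held 37.5 and 37.8 before and 36.4 and 29.4 after, and the difference was 0.88 (adjusted p = 0.00145). Irgm1, an immunity-related GTPase, rose on PAM by 0.44 and had a difference of 0.68 (adjusted p = 0.0181).

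Ifi204, a DNA sensor gene of the Ifi200 family, fell on zymosan by 0.48, from 48.5 and 49.8 to 35.2 and 35.3 CPM. On PAM it held 31.6 and 28.5 before and 35.8 and 36 after (adjusted p = 0.0797). The Mx1 start peak fell by 0.40 on zymosan, and its change on PAM was 0.31 (adjusted p = 0.0532). Before the addition both Z libraries lay above both P libraries at 16 of the 22 start peaks (25.6% of all tested peaks), and the reverse held at 0 (24.6%). After it both PScG libraries lay above both ZScG libraries at 9 (24.1%) and below them at 4 (22.0%).

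The list's count of called differences was 3 with only the 4 groups in the fit, 3 without P replicate 1, 3 without PScG replicate 2, 2 without Z replicate 2 and 2 without ZScG replicate 2. Single calls were lost under 11 of 17 alternatives at the Mx1 start, 7 at Irgm1, 5 at Oasl1, 2 at Ifi204 and 1 at Cmpk2. At Mx2 the call was kept under all 17.

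The start peaks of the other 16 antiviral genes had no called difference, though other peaks overlapping some of these genes did, among them Ifit1 and Ifit2 above. The Oasl2 start rose by 0.93 on PAM and 1.30 on zymosan, and its difference was -0.37 (95% interval -0.95 to 0.22). Rsad2, which encodes viperin, rose by 1.01 on PAM from 15.6 and 14.9 to 32.4 and 29.1 CPM. On zymosan Rsad2 went from 21.3 and 22.4 to 29.7 and 25.5, with a difference of 0.67 (adjusted p = 0.0794). Isg15, a ubiquitin-like modifier, rose by 1.33 and 0.66 (adjusted p of the difference = 0.0931). The Bst2 start rose on zymosan by 0.58, with a change on PAM of 0.31 (adjusted p = 0.0962). Ifi44 had the highest fitted difference of the list, 1.05, at low counts (adjusted p = 0.311).

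**Figure D4:**
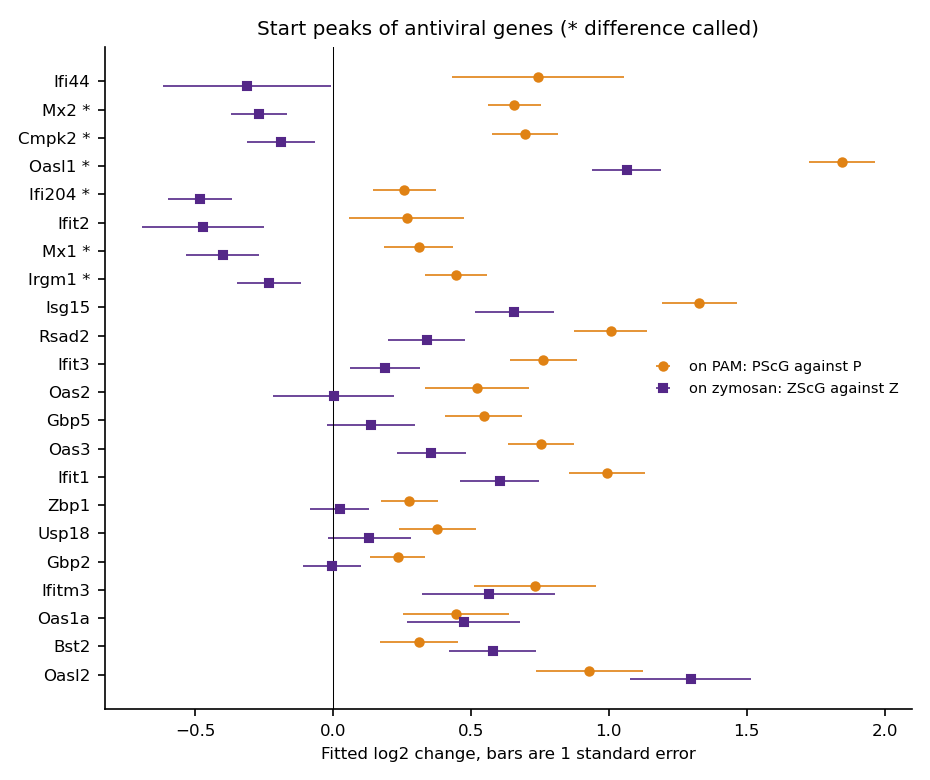
Fitted log2 change at the start peaks of 22 antiviral genes on PAM (circles) and zymosan (squares), with bars of 1 standard error; an asterisk marks the 6 genes with a called difference. The circle lies right of the square at 19 of 22 genes, and at 8 genes the square lies left of 0.

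Over all gene starts, those of the lists included, 44 of 12486 start peaks had a called difference above 0 (0.352%, against 0.408% of all tested peaks) and 5 below it (0.04%, against 0.118%). The genes named here lie outside the lists and were chosen after their values were seen. Several are known interferon-induced genes: Isg20, an RNA exonuclease gene, rose by 0.90 on PAM, with 0.27 on zymosan, and Phf11d rose by 0.53 on PAM and fell by 0.85 on zymosan. Cd180, which encodes a Toll-like surface protein of B cells and myeloid cells, rose by 0.32 on PAM and fell by 0.41 on zymosan. At other starts the difference came with a fall on zymosan. Mef2c, a transcription factor gene, fell by 1.38 there, with -0.33 on PAM, and Hsd11b1, which encodes an enzyme that activates glucocorticoids, fell by 2.41 there and by 1.45 on PAM. Of the starts below 0, Srgn, the gene of the granule proteoglycan serglycin, rose on zymosan by 0.75, with 0.03 on PAM.

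Libraries with a single added ligand show levels beside those of the triplets. At the wide Mx1 peak, SeV alone held 31.5 and 31.4 CPM and cGAMP alone 29.8 and 39.5. With PAM, SeV gave 30.5 and 25.6 and cGAMP 33.8 and 42.1, whereas with zymosan they gave 19.9 and 21.0, and 22.7 and 21.0. All 6 libraries with zymosan and an added ligand thus lay below all 6 with PAM and an added ligand. The mitochondrial share of counts was 51.0% to 63.1% in the former and 44.4% to 46.6% in the latter. It was 45.0% to 48.7% with SeV or cGAMP alone, and 57.3% and 61.5% in ScG, whose Mx1 levels are given above. The part of that share in these levels was not tested. The Ifnb1 peak was higher with SeV than with cGAMP in these libraries, at 22.3 and 17.7 CPM in PS against 5.96 and 4.65 in PcG, and 16.4 and 13.6 in ZS against 10.9 and 9.46 in ZcG. These levels are given as a description, with no test.

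Over gene bodies and 10 kb around them, 16 of 210 peaks of the antiviral list (7.62%) had a called difference, all above 0, against 0.408% of all tested peaks. They lay at Cmpk2, Ifi204, Ifit1, Ifit2, Irgm1, Isg15, Mx1, Mx2, Oasl1 and Rsad2. In regions chosen after the values were seen, each with 20 kb on either side, the difference was called at 17 of 125 peaks around the Ifi200 genes (chr1:173448485-174051755), 5 of 33 around the Ifit genes (chr19:34530550-34670009) and 4 of 39 around Mx1 and Mx2 (chr16:97427035-97580901). Around Rsad2 and Cmpk2 (chr12:26422743-26499837) it was called at 2 of 21. All of these lay above 0. In the Mx region 12 of 39 peaks rose on PAM and 0 on zymosan, and in the Ifi200 region 52 and 12 of 125. Around the Ifit genes 22 of 33 rose on PAM and 13 on zymosan, and around Rsad2 and Cmpk2 17 and 8 of 21. Of all tested peaks 12.2% rose on PAM and 9.09% on zymosan.

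The ISRE letters were counted in promoters by the class of their start peak. A match was found in 14 of 59 promoters with a called difference above 0 (23.7%) and in 1 of 8 with one below it (12.5%, Srgn), against 3.44% of all 32851 promoters of the same length. It was found in 3.22% of 1117 promoters with the same rise on both backgrounds and in 3.19% of 1096 with the same fall. Outside the Ifi200 region, an alternative added after the data were seen, it was found in 6 of 49 (12.2%). The 13 start peaks with a match were those of Ifi205, Ifi206, Ifi207, Ifi208, Ifi211, Ifi213, Mndal, Ifit3b, Irgm1, Trim12a, Trim12c, BC147527 and Cytip. Genes of a family share sequence, so these are not independent, and a match is a run of letters and not a bound site. No test was made.

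The kappa B letters were found in 2 of those 59 promoters (3.39%), against 1.47% of all. The AP-1 letters TGANTCA were found in 7 (11.9%), against 7.81%. Both counts are small.

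**Figure D5:**
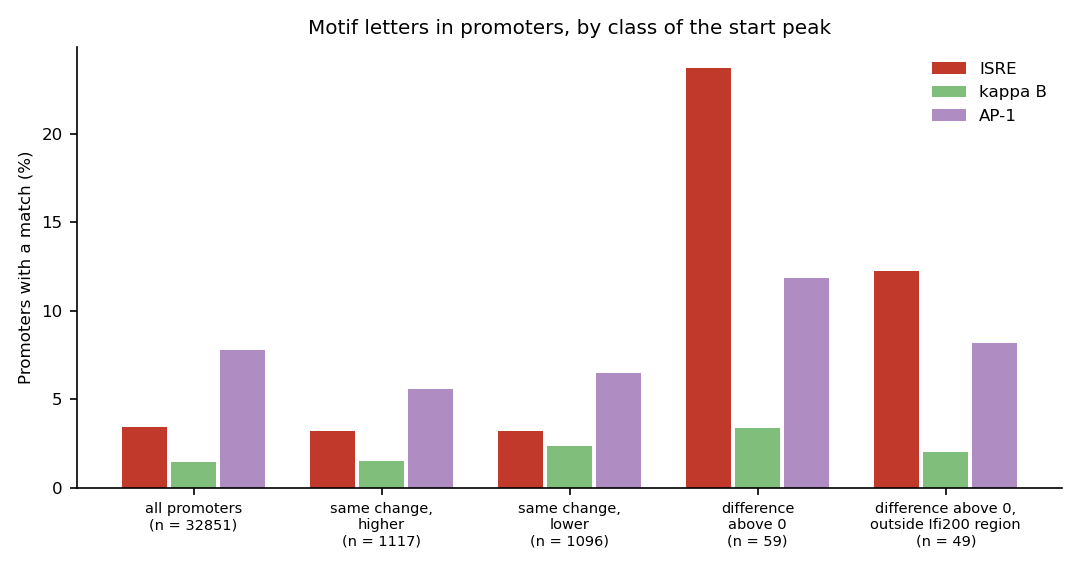
Share of promoters with a match to the ISRE, kappa B or AP-1 letters on either strand (bars), for all promoters and by class of the start peak, with the number of promoters under each group. The ISRE bar reaches 23.7% where the change was larger on PAM and 12.2% outside the Ifi200 region, against 3.44% of all promoters.

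In the other 10 lists 0 of 148 start peaks had a called difference in edgeR. At an unadjusted p under 0.05 there were 16 (10.8%, against 10.7% of all tested peaks), 7 of them above 0, and DESeq2 called 1, at Card9. Of the interferons and their pathway factors, Ifnb1 had the largest change on each background. The Ifnb1 peak (chr4:88519372-88521906) lies 888 bp from the start and does not cover it. It held 1.22 and 1.30 CPM in P and 10.6 and 10.8 in PScG, and 1.97 and 2.10 in Z and 15.5 and 18.1 in ZScG. It rose by 3.07 on PAM and 3.03 on zymosan, a difference of 0.04 with a 95% interval of -0.78 to 0.86. Of 14 genes 5 rose on PAM (35.7%, against 12.2% of all tested peaks) and 0 fell. On zymosan 3 rose (21.4%, against 9.09%) and 1, the kinase gene Tyk2, fell (7.14%, against 11.5%). Irf1 rose on both, by 0.63 and 0.36.

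Of 12 cytosolic sensing genes 4 rose on PAM (33.3%, against 12.2% of all tested peaks), Tbk1, Trex1, Trim25 and Dhx58. On zymosan 1 rose (8.33%, against 9.09%), Dhx58 (0.88 and 0.68), a relative of RIG-I. The start of Ddx58 had a difference of 0.48 and Tmem173 of -0.24, neither called (adjusted p = 0.508 and 0.916). Adar, an RNA-editing enzyme, had -0.34 (adjusted p = 0.558).

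Among cytokines 6 of 16 start peaks rose on PAM (37.5%, against 12.2% of all tested peaks) and 3 on zymosan (18.8%, against 9.09%), and 0 fell on either. Il27 rose from 2.90 and 4.33 CPM to 14.5 and 14.2 on PAM and from 2.89 and 4.72 to 11.4 and 12.3 on zymosan. Tnf rose by 0.54 on PAM and 0.87 on zymosan, from 49.0 and 59.8 to 77.0 and 81.5 CPM and from 46.1 and 47.9 to 85.8 and 86.2. Il6 rose by 0.41 and 0.81, and its difference of -0.40 was not called (adjusted p = 0.516). The Il10 start rose on PAM by 0.44, with 0.19 on zymosan (adjusted p = 0.547). Il1b had 0.49 and 0.61, neither called (adjusted p = 0.155 and 0.178). Lif rose on PAM by 1.55, and the Il1a start had a difference of -0.90 (adjusted p = 0.445).

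Of the chemokine starts, Ccl5 and Cxcl10 rose and Cxcl2 and Cxcl3 fell on both backgrounds. Ccl5, which attracts T cells and monocytes, went from 11.4 and 13.5 CPM to 110 and 106 on PAM and from 4.85 and 7.03 to 77.5 and 83.1 on zymosan. It rose by 3.12 and 3.73, and its difference of -0.62 had an adjusted p of 0.145. Cxcl10, a ligand of CXCR3 on T cells, rose by 1.46 and 1.19, from 25.7 and 20.3 to 66.1 and 60.6 CPM on PAM and from 32.0 and 26.4 to 67.5 and 65.6 on zymosan. Cxcl3, a neutrophil attractant, fell by 1.76 on PAM and by 1.24 on zymosan, from 18.3 and 20.2 to 6.19 and 5.19 CPM and from 10.8 and 9.75 to 4.13 and 4.55. Cxcl2 fell by 0.65 and 0.30. Of 15 start peaks 5 rose on PAM (33.3%, against 12.2% of all tested peaks) and 4 on zymosan (26.7%, against 9.09%). On each background 2 fell (13.3%), near the 11.9% and 11.5% of all tested peaks. Ccl3 and Ccl4 share a peak. The low-count starts of Ccl7 and Cxcl5 had differences of -1.77 and -1.68 (adjusted p = 0.538 and 0.622).

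NF-kappaB and AP-1 genes moved in the same direction on both backgrounds where both were called. Rela rose by 0.70 and 0.53, Nfkb2 by 0.50 and 0.59 and Nfkbie by 0.39 and 0.38, while Birc3 fell by 0.35 and 0.74. Of 16 NF-kappaB genes 5 rose on PAM (31.2%) and 6 on zymosan (37.5%), against 12.2% and 9.09% of all tested peaks. The 2 that fell on each (12.5%) are near the 11.9% and 11.5% of all peaks. Of 14 AP-1 and BATF genes 8 rose on PAM (57.1%) and 5 on zymosan (35.7%), against the same shares, and 2 (14.3%) and 1 (7.14%) fell. Fos, a subunit of AP-1, rose by 0.60 and 0.51. The highest fitted differences of these lists were 0.57 at Batf2 and 0.38 at Birc3 (adjusted p = 0.608 and 0.191). The lowest were -0.43 in the AP-1 list and -0.74 in the NF-kappaB list, neither called.

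Several genes of zymosan and lipopeptide sensing fell at their starts. Clec7a, the zymosan receptor gene, went from 14.1 and 16.4 CPM to 8.53 and 10.6 on PAM and from 16.7 and 12.3 to 7.59 and 10.2 on zymosan. It fell by 0.66 and 0.70, with a difference of 0.04 (95% interval -0.50 to 0.58). Cd14, a co-receptor of TLR2, fell by 1.04 and 0.91, and Cd36, a scavenger receptor, by 1.13 and 1.26. Tlr2 fell on zymosan by 0.60 and had -0.18 on PAM (adjusted p = 0.368); its difference of 0.43 was not called (adjusted p = 0.414). Of 14 genes of the TLR2 pathway 4 fell on PAM (28.6%, against 11.9% of all tested peaks) and 6 on zymosan (42.9%, against 11.5%), and Irak1 alone rose on each. Of 16 Dectin pathway genes 4 fell on PAM (25%) and 2 rose (12.5%). On zymosan 2 fell (12.5%) and 1 rose (6.25%), so that only the falls on PAM lie well above the shares of all peaks. The gene that rose on zymosan was Card9, the adaptor downstream of Dectin-1, which rose from 11.4 and 12.0 CPM to 17.0 and 18.5 on zymosan; on PAM it went from 17.5 and 18.8 to 14.4 and 15.7 (difference -0.86, adjusted p = 0.0579).

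Of 16 antigen presentation and costimulation genes 8 rose on each background (50%, against 12.2% and 9.09% of all tested peaks) and 0 fell. H2-K1 rose by 0.72 and 0.45, H2-D1 by 0.72 and 0.43, Tap2 by 0.86 and 1.30 and Cd40 by 0.70 and 0.45. These encode MHC class I chains, a peptide transporter subunit and a costimulatory receptor. Of 15 feedback and metabolism genes with a start peak, 5 rose on PAM (33.3%, against 12.2%) and 3 on zymosan (20%, against 9.09%). Socs3, an inhibitor of cytokine signalling, rose by 0.51 and 0.79, and Nos2, the inducible nitric oxide synthase, by 0.79 and 1.06. Cish rose by 0.44 on PAM and had -0.04 on zymosan (adjusted p of the difference = 0.17).

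The peaks with the largest shared rise, ranked by the smaller of the 2 changes, lay mostly outside gene starts and at low starting counts. The clearest was a peak 2.7 kb from Tnfrsf13b, the gene of TACI, a receptor of the TNF receptor family on B cells (chr11:61122455-61123549). It held 0.764 and 0.433 CPM in P and 20.8 and 20.3 in PScG, and 0.525 and 0.524 in Z and 13.4 and 12.1 in ZScG. It rose by 5.09 and 4.58, and ScG alone held 12.5 and 13.3 against 1.53 and 0.482 in Ctrl. A peak within Zbtb20, a transcriptional repressor gene (chr16:43601499-43602099), rose by 4.58 and 4.33, to 7.45 and 8.89 CPM on PAM and 7.93 and 11.4 on zymosan. Peaks near Angpt1 (4.87 and 4.65) and within Cmpk2 (5.47 and 4.10) rose as well. At Eif4g3 both Z libraries held 0 counts, and the rise on zymosan was at least 5.28-fold against a floor of 3 counts per library.

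The largest shared falls were at low-count peaks. A peak over Ipcef1 and Oprm1 (chr10:7037197-7037581) fell from 3.82 and 3.97 CPM to 0.269 and 0.427 on PAM and from 2.62 and 2.94 to 0.112 and 0.276 on zymosan. The other named falls lay near Nr2f2 and Agtr1b and within Htr7 and Ano6, with falls of 3.44 to 3.96 on PAM. In ZScG the Agtr1b peak held 0 counts in both libraries.

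Called differences were ranked by fitted size among peaks with a mean of at least 1 CPM and replicate differences of 1 sign. The extremes of this ranking were all at peaks of few counts. The 6 highest were near or within Zfp386 (4.79), Slc25a10 (4.78), Dhrs3 (4.40), Rbbp8 (4.30), Sema3a (4.24) and Ube2o (4.09). At Slc25a10, P held 1 and 0 counts, PScG 24 and 19, Z 6 and 11 and ZScG 15 and 7. The lowest were near or within Stk31, Plekha6, Macc1, Gm572 (-4.62), AF067061 (-4.60) and Dnajb6 (-4.29). At Stk31, Plekha6 and Macc1 both Z libraries held 0 counts, so that the fitted size is no measure there, and the rise on zymosan was at least 2.70-, 6.83- and 2.36-fold. The calls at these 12 peaks were lost under 3 to 14 of 17 alternatives.

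The opposite calls named for the largest changes were likewise at few counts, although the 72 such peaks had a median of 8.19 CPM, against 2.17 over all tested peaks. Mx2 and Cd180, above, are examples with many counts. Tbc1d23 rose from 1.22 and 1.01 CPM to 4.94 and 3.63 on PAM and fell from 1.31 and 0.839 to 0.223 and 0.276 on zymosan. Prdm4 fell from 4.13 and 4.69 to 1.44 and 1.42 on PAM and rose from 0.918 and 1.15 to 2.57 and 2.76 on zymosan. The other named peaks of this kind were at Dhrs3 and Tnni3k, higher on PAM, and near Cox6c and within Colgalt2, lower on PAM.

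The change without a background ligand, ScG against Ctrl, called 33049 peaks (27.7%), 17169 higher (14.4%) and 15880 lower (13.3%). The change on PAM differed from it at 5126 peaks (4.29%), 1337 above 0 (1.12%) and 3789 below (3.17%), and the change on zymosan at 3959 (3.31%), 686 above (0.574%) and 3273 below (2.74%). Both comparisons share the ScG and Ctrl libraries, and P is set against Ctrl across unlike mitochondrial shares. At Ifit2 the change on zymosan minus that without a background was -1.49 on the log2 scale (adjusted p = 2.67e-08), and for PAM it was 0.71 (adjusted p = 0.0629). At Sec22c it was -4.07 for PAM and -2.36 for zymosan.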

How the data were processed

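The authors deposited raw read counts of 119751 ATAC-seq peaks in 36 libraries (18 groups of 2). Per the submitters' processing notes, reads were handled with Bowtie2 2.2.9, MACS2 1.4, bedtools and featureCounts on mm10; how peaks were merged is not given in the sources used here. Counts were fitted with the edgeR 4.0.16 quasi-likelihood test (R 4.3.3) over all 36 libraries with TMM scaling, after 286 peaks failed the filterByExpr minimum of 10 counts and the mitochondrial peak was left out, a choice made after seeing the data. This left 119464 peaks, 18 residual degrees of freedom and a common dispersion of 0.02. P-values were adjusted by Benjamini-Hochberg within each contrast. CPM are scaled by TMM.

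Named peaks with the largest differences have a mean of at least 1 CPM and replicate differences of 1 sign: the 6 highest and 6 lowest differences, the 5 largest shared changes in each direction, 3 opposite changes in each direction, the 2 highest and 2 lowest start peaks of each list, and 9 genes set by name. The members and lists were chosen with earlier results of these data known. DESeq2 1.42.0, other scalings, filters, thinning, a replicate block and omitted libraries were the alternatives. The fit was also run on simulated counts with known changes, and the outcome is not given here.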

Additional observations from a re-analysis of the deposited data

Results flagged for a closer look

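The test of the difference itself separated the change on PAM from that on zymosan at 629 peaks. It separated the change on PAM from that without a background ligand at 5126 peaks, and the change on zymosan from it at 3959. These comparisons share the ScG and Ctrl libraries.

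Among single peaks, the difference of PAM minus zymosan was called with the following log2 values. Among peaks with a mean of at least 1 CPM and replicate differences of 1 sign, the highest were Zfp386 (4.79), Slc25a10 (4.78), Dhrs3 (4.40), Rbbp8 (4.30), Sema3a (4.24) and Ube2o (4.09). The lowest under the same filter were Stk31 (-7.74), Plekha6 (-7.53), Macc1 (-6.98), Gm572 (-4.62), AF067061 (-4.60) and Dnajb6 (-4.29). At Stk31, Plekha6 and Macc1 both Z libraries held no counts, so the fitted size is no measure there. Calls in opposite directions were made at Dhrs3, Tbc1d23 (3.98), Tnni3k (3.23), Cox6c (-3.74), Colgalt2 (-3.30) and Prdm4 (-2.96). All of these rest on few counts.

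The lowest p-values were those of Ifit2 (2.201), Ifit1 (2.18), the wide Mx1 peak (1.55), Sec22c (-1.71), Gm4951 (2.44), Apobec1 (1.93), Fkbp1a (1.60), Hmga2 (1.49), Mx2 (0.93), Ifi206 (1.18), Ston2 (1.45) and Lsm14a (1.29). The antiviral start peaks with a called difference, beside Mx2, were Cmpk2 (0.88), the Mx1 start (0.71), Oasl1 (0.78), Ifi204 (0.74) and Irgm1 (0.68).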

How the results depend on the processing

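The counts of called peaks on each background and of shared changes stayed within 1.5 times under every alternative that left out no single library. The count of called differences did not: 629 became 329 with scaling by total counts, 196 with only the 4 groups in the fit, 352 after thinning and 178 at an adjusted p under 0.01. It was 255 to 447 when 1 library was left out, 562 with DESeq2, 518 with DESeq2 size factors and 447 with offsets that depend on abundance. In the same 3 settings (total counts, 4 groups, thinning) the 79 shared changes with a called difference became 43, 30 and 39, and the 480 differences called on 1 background became 243, 136 and 261. Opposite changes, 72 in all, became 47 with total counts, 38 with the 4 groups and 39 with DESeq2. With 1 library left out these classes ranged from 24 to 45, from 186 to 359 and from 34 to 52. Left-out libraries gave 18970 to 29163 changed peaks on PAM and 15199 to 24729 on zymosan. A group left with 1 library is assumed there to vary like the others.

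The antiviral count of 6 was 3 with the 4 groups, 2 to 5 with 1 library left out and 16 over all peaks within 10 kb. Within 10 kb the other lists, at 0 by starts, had 1 of 143 peaks (interferon pathway), 1 of 144 (sensing), 1 of 137 (cytokines), 2 of 91 (chemokines), 1 of 199 (NF-kappaB), 3 of 147 (TLR2), 1 of 223 (Dectin), 1 of 102 (AP-1), 3 of 185 (antigen presentation) and 0 of 186 (feedback), against 0.527% of all tested peaks. Of 34 named differences 12 stayed called under all 17 alternatives of the fit, and 0 of 95 named peaks reversed. Those 12 are the peaks chosen for the lowest p-values of the difference, so that count is no separate support. The other 22 were each lost under at least 1 alternative.

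Replicate numbers share only a number: deviations of same-numbered libraries correlated between -0.013 and 0.004. With the replicate block 28655 peaks changed on PAM, 24393 on zymosan and 620 differed.

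The median standard error of the difference over all peaks was 0.64 on the log2 scale, with 2 libraries per group.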
